A study of Homo sapiens with 8 samples.

Results

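A set of 7 genes that handle the methylated guanine left by temozolomide (TMZ) was followed here, chosen by their symbol in the authors' count table. Of 26364 genes in that table, these 7 are the MutS partners MSH6 and MSH3, the MutL partners PMS2, PMS1 and MLH3, the exonuclease gene EXO1 and MGMT. All 7 symbols were found, 5 of them passed the filter on low counts that left 14201 genes for testing, and MLH3 and MGMT did not. The libraries came from stable clones of the human glioblastoma line LN229. Clone Surv-GFP (D6) carried the plasmid pcDNA3.1-survivin-eGFP with a functional nuclear export sequence (NES) and held Survivin mainly in the cytoplasm, whereas clone SurvNESmut-GFP (L2) carried pcDNA3.1-survivin-eGFP-NES, with 2 leucines of the NES replaced by alanines, and held it mainly in the nucleus. TMZ at 50 µM was given to part of the cultures of each clone over 48 h, the rest had none, 2 libraries per group were lettered a and b, and every culture was kept under G418. Each form of Survivin was represented by a single clone, so the state of the NES and any other property of that clone cannot be told apart.

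TMZ methylates guanine at its O6 position, and the lesion pairs with thymine at the next replication. MGMT takes the methyl group off directly and is used up in doing so, which makes cells without it sensitive to the drug. Where the lesion stays, MutS dimers recognise the mispair, MutL dimers cut the new strand, EXO1 digests it, and resynthesis opposite the lesion restores the mispair, so that repair starts over and breaks follow in the next cell cycle.

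The start regions of 5 of these genes are shown: MSH6, EXO1, MSH3 and PMS2 hold letters of the same type while their levels moved differently, and MGMT had no reads. They are stretches of 200 bases, from 180 before to 20 after the annotated start, taken from RefSeq (GRCh38.p14) for the first start listed for each gene and written along the transcribed strand. In the first 4 sequences, capitals mark matches to the E2F-type letters TTTCCCGC, TTTCGCGC, TTTGCCGC or TTTGGCGC on either strand, and in MSH3 a match on each strand overlaps the other. In MGMT, which holds no match, capitals mark the 29 CpG steps.
MSH6 (chr2:47782965-47783164 on the plus strand): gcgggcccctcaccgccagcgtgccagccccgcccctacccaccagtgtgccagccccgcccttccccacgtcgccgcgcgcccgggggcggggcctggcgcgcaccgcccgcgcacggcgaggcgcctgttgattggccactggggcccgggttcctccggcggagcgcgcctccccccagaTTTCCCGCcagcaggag
EXO1 (chr1:241848024-241848223 on the plus strand): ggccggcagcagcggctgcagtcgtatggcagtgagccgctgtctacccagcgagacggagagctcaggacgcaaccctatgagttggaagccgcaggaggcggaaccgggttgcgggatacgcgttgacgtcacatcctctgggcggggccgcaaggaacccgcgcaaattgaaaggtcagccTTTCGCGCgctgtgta
MSH3 (chr5:80654472-80654671 on the plus strand): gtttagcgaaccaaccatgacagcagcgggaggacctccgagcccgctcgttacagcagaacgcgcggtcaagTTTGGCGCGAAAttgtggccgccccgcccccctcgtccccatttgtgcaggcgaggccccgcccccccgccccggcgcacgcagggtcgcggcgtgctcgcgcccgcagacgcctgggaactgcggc
PMS2 (chr7:6009087-6009286 on the minus strand): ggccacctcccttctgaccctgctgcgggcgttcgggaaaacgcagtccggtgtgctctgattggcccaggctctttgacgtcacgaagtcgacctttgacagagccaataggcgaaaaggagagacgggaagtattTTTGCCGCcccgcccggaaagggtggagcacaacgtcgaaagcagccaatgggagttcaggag
MGMT (chr10:129467061-129467260 on the plus strand): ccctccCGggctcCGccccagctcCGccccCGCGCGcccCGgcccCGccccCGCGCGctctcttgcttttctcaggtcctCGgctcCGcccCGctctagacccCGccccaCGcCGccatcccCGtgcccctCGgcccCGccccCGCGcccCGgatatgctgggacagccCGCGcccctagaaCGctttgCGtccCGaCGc
Over the full 300-base windows, 4 of the 7 genes held such a match, and PMS1, MLH3 and MGMT held none. Among all 35116 RefSeq windows of that length, 3.31% held one. The 4 windows with a match had 24 to 39 CpG steps, against a median of 14 over all windows. Each of the letter runs searched holds a CpG step, so that share is not a matched background. The MGMT window had 45 CpG steps, more than 96.5% of all windows, while the MLH3 window had 22. A match is a run of letters and not a shown binding site, and neither binding nor methylation was measured here.

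Between 15826923 and 18861603 reads per library fell on genes. The study describes independent biological replicates of these clones, each in technical duplicate, but no source used here says which of these the letters a and b mark, so p-values measure the spread between these libraries, which may be technical. Replicates of a group differed by more than counting error, most in the TMZ-exposed SurvNESmut-GFP pair, where the chi-square per degree of freedom was 5.62 against 2.18 to 2.62 in the other groups. Glial markers VIM, NES, CD44, SOX2, S100B and OLIG2 were present, with VIM at 2348 to 3783 CPM (counts scaled to a common library size), whereas GFAP stayed at or below 0.921 CPM. The untreated clones differed in these markers. S100B was at 777 CPM in Surv-GFP and 40.6 CPM in SurvNESmut-GFP, and OLIG2 at 34 and 6.94 CPM. Of the 6 tested, 4 were lower and 2 higher in SurvNESmut-GFP (all genes 29.4% and 34.7%). Of 6 markers of leukocytes, endothelium and epithelium, 5 stayed at or below 0.867 CPM and CD68 lay between 11.9 and 21.4 CPM. CDKN1A, which encodes p21, rose upon TMZ from 81.9 to 941 CPM in Surv-GFP and from 118 to 460 CPM in SurvNESmut-GFP. BIRC5, the Survivin gene, went from 1133 to 1984 CPM and from 411 to 258 CPM, and reads of the plasmid and of the endogenous gene cannot be told apart.

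Upon TMZ, MSH6 fell and EXO1 rose in both clones, while PMS2 and PMS1 rose in SurvNESmut-GFP by about as much as MSH6 fell there. In Surv-GFP, EXO1 alone of the 5 tested genes was called higher and MSH6 alone lower (adjusted p threshold of 0.05, edgeR quasi-likelihood test), whereas 58.9% of all tested genes passed, 30.1% higher and 28.9% lower. In SurvNESmut-GFP, EXO1, PMS2, PMS1 and, less firmly, MSH3 (4 genes) were higher and MSH6 (1 gene) lower, where 37.8% of all genes passed, 18.6% higher and 19.1% lower. Over the 5 genes the median log2 fold change was -0.07 with functional and 0.27 with mutated NES, and over all tested genes it was 0 in both clones. A direct test of the difference between the TMZ effects called 3 of the 5 genes higher in SurvNESmut-GFP (MSH6, PMS2 and MSH3) and 0 lower, where 36.8% of all genes passed, 16.6% higher and 20.2% lower. The 2 TMZ effects and the clone differences share libraries, so their values are given side by side and not set against each other.

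**Figure D1:**
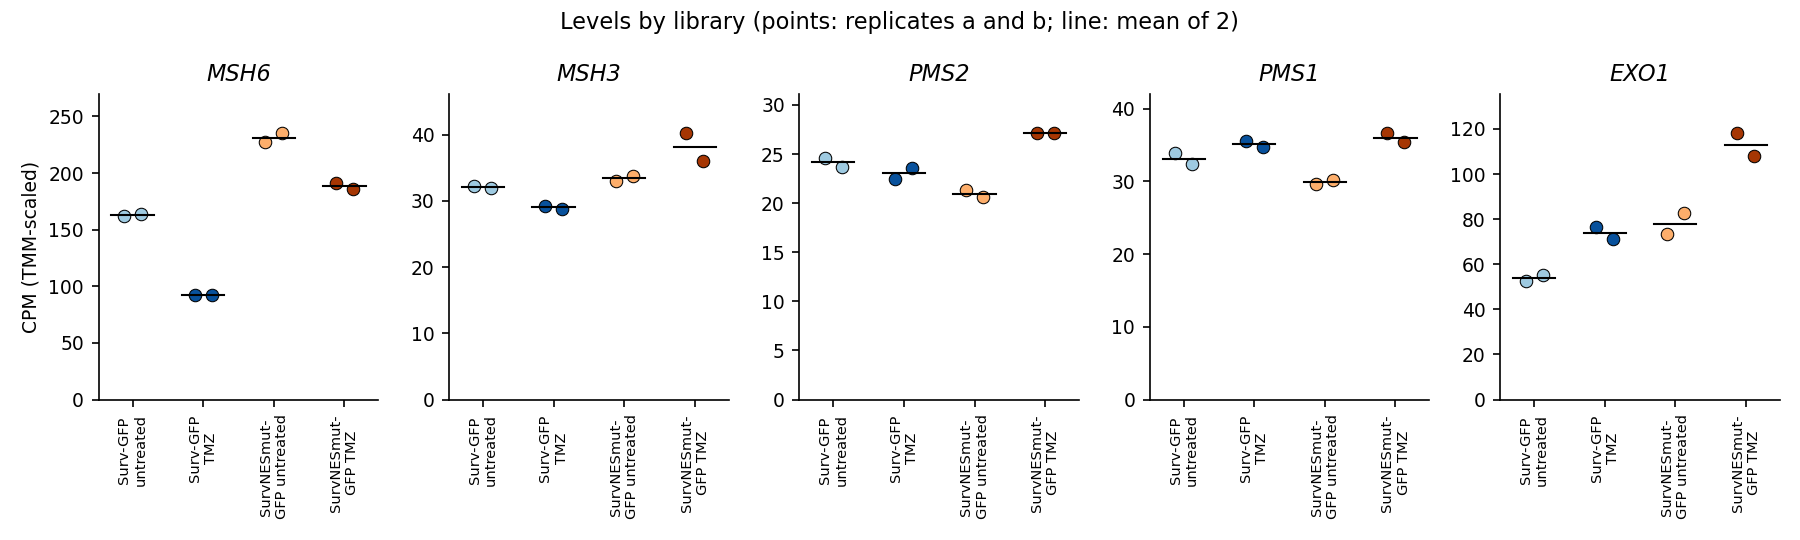
CPM (linear axes from 0) of the 5 tested genes in each of the 8 libraries, with replicates a and b as points and the mean of 2 as a line. MSH6 dropped to about 92.2 CPM in the exposed Surv-GFP pair, and EXO1 stood highest in the exposed SurvNESmut-GFP pair.

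MSH6 is the MutS partner for single mispaired bases, the type that O6-methylguanine forms with thymine. In Surv-GFP the untreated libraries held 162 and 164 CPM and the exposed ones 92.1 and 92.3 CPM. In SurvNESmut-GFP the untreated libraries held 227 and 235 CPM and the exposed ones 191 and 186 CPM. The 4 groups did not overlap, and the exposed SurvNESmut-GFP libraries still lay above the untreated Surv-GFP ones. MSH6 thus fell 1.77-fold in Surv-GFP (log2 fold change -0.82 ± 0.049 SE, adjusted p = 4.9e-10), a larger change in size than that of all but 16.5% of tested genes. It fell 1.22-fold in SurvNESmut-GFP (log2 fold change -0.29 ± 0.047 SE, adjusted p = 1.2e-04). The decrease was smaller in SurvNESmut-GFP by 0.53 on the log2 scale (95% interval 0.39 to 0.67, adjusted p = 1.5e-05). These calls held in every alternative analysis run. In the GENCODE v29 annotation 16.2% of the MSH6 exon bases lie under exons of FBXO11, whose own log2 fold changes upon TMZ were -0.14 and -0.07.

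MSH3, the partner for larger loops, showed no such drop. The untreated Surv-GFP libraries held 32.2 and 31.9 CPM and the exposed ones 29.3 and 28.8 CPM, a log2 fold change of -0.14 that missed the threshold (95% interval -0.30 to 0.01, adjusted p = 0.104) except with a filter of 1 CPM (-0.19, adjusted p = 0.0385). In SurvNESmut-GFP, MSH3 went from 33 and 33.8 CPM to 40.2 and 36.1 CPM, and replicate a of the exposed pair stood highest of all 8 libraries. This rise of 0.19 ± 0.071 SE (log2) had an adjusted p of 0.0427, and it was lost in 11 of 17 alternatives, among them 7 of the 8 that left out 1 library. Without the exposed SurvNESmut-GFP replicate a it was 0.11 (adjusted p = 0.34). The difference between the TMZ effects was 0.34 (95% interval 0.12 to 0.55, adjusted p = 0.0165), and 0.25 (adjusted p = 0.0707) without that library.

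The balance between the MutS partners differed upon TMZ. Within a library the ratio of MSH6 to MSH3 counts, which does not depend on scaling between libraries, was 5.02 and 5.16 in untreated and 3.15 and 3.20 in exposed Surv-GFP. It was 6.88 and 6.96 in untreated and 4.77 and 5.15 in exposed SurvNESmut-GFP. The exposed libraries lay below the untreated ones of their clone in each case, and the exposed SurvNESmut-GFP ratios overlapped those of untreated Surv-GFP. The mean log2 ratio differed by -0.68 and -0.48, respectively, and 2 libraries against 2 cannot give an exact permutation p below 0.333, the value reached in both clones.

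PMS2 carries the nuclease that nicks the new strand in the main MutL dimer. Its libraries held 24.6 and 23.7 CPM untreated and 22.5 and 23.6 CPM exposed in Surv-GFP, with a log2 fold change of -0.07 (95% interval -0.23 to 0.10, adjusted p = 0.477). In SurvNESmut-GFP they held 21.3 and 20.6 CPM untreated and 27.1 CPM in both exposed replicates. PMS2 thus rose 1.29-fold in SurvNESmut-GFP (log2 fold change 0.37 ± 0.078 SE, adjusted p = 0.00134), and the effects differed by 0.44 (adjusted p = 0.00505). PMS2 has near-identical copies elsewhere in the genome. With the 7 copies listed in the count table added to it, the rise was 0.21 (adjusted p = 0.00995) and the difference between the effects was 0.16 (adjusted p = 0.144). In Surv-GFP, where PMS2 passed no test, the copy PMS2CL rose from 5.03 to 7.43 CPM (log2 fold change 0.56, adjusted p = 0.00351) and PMS2P3 from 7.65 to 9.89 CPM (0.37, adjusted p = 0.0177). The most abundant copy, PMS2P1, stood at 12.9 and 11.7 CPM there (-0.13, adjusted p = 0.319). The PMS2 values are uncertain where reads could fall on a copy.

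AIMP2, a tRNA synthetase scaffold gene that starts next to PMS2 in the opposite direction, had log2 fold changes of 0.57 in Surv-GFP (adjusted p = 7.2e-06) and 0.00 in SurvNESmut-GFP (adjusted p = 0.978). The neighbours thus differed in which clone showed a call: AIMP2 in Surv-GFP and PMS2 in SurvNESmut-GFP. Their TMZ effects also differed between the clones in opposite directions, by -0.57 for AIMP2 (adjusted p = 4.8e-04) and 0.44 for PMS2. With the PMS2 copies added, the PMS2 difference was 0.16 and passed no threshold (adjusted p = 0.144).

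PMS1, a MutL partner with no settled role in mismatch correction, held 33.9 and 32.4 CPM in untreated and 35.5 and 34.8 CPM in exposed Surv-GFP. That log2 fold change of 0.08 missed the threshold (95% interval -0.06 to 0.23, adjusted p = 0.30). In SurvNESmut-GFP it rose from 29.7 and 30.2 CPM to 36.6 and 35.4 CPM, which is 1.20-fold (log2 fold change 0.27 ± 0.068 SE, adjusted p = 0.00588). The groups of that clone did not overlap, but the effects were not shown to differ between the clones (0.18, 95% interval -0.02 to 0.38, adjusted p = 0.155). The ratio of PMS2 to PMS1 counts ranged from 0.635 to 0.766 over the 8 libraries. Exposed and untreated libraries did not overlap in either clone. Upon TMZ the mean log2 ratio differed by -0.15 in Surv-GFP and 0.11 in SurvNESmut-GFP (exact permutation p = 0.333 each, the smallest possible).

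MLH3, the MutL partner known for its part in meiotic crossovers, had almost no reads. Its counts were 3 and 4 in untreated and 2 and 1 in exposed Surv-GFP, and 2 and 1 in untreated and 4 and 0 in exposed SurvNESmut-GFP. Corrected for library size, the exposed to untreated ratio of summed counts was 0.434 in Surv-GFP (95% counting interval 0.0724 to 1.9) and 1.47 in SurvNESmut-GFP (0.249 to 10.1). A change in either direction was not detectable with these counts. No source names the counting program or annotation behind them, so few counts for MLH3 need not mean low expression.

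EXO1, which digests the nicked strand and also resects double-strand breaks, rose in both clones. Untreated Surv-GFP libraries held 52.7 and 55.2 CPM and exposed ones 76.7 and 71.1 CPM. Untreated SurvNESmut-GFP libraries held 73.3 and 82.7 CPM and exposed ones 118 and 108 CPM. The exposed libraries lay above the untreated ones in each clone, and the exposed Surv-GFP and untreated SurvNESmut-GFP groups overlapped. The increase was 1.37-fold in Surv-GFP (log2 fold change 0.45 ± 0.069 SE, adjusted p = 2.8e-05) and 1.45-fold in SurvNESmut-GFP (0.53 ± 0.065 SE, adjusted p = 7.5e-06). These effects were not shown to differ, with a difference of 0.08 (95% interval -0.12 to 0.28, adjusted p = 0.568). The paper, from qPCR at the same TMZ dose, describes EXO1 as induced in Surv-GFP cells and repressed in NES-mutated cells. For SurvNESmut-GFP that is the opposite direction to the reads here. Its qPCR also covered a later time, and its text does not tie the repression to a time.

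**Figure D2:**
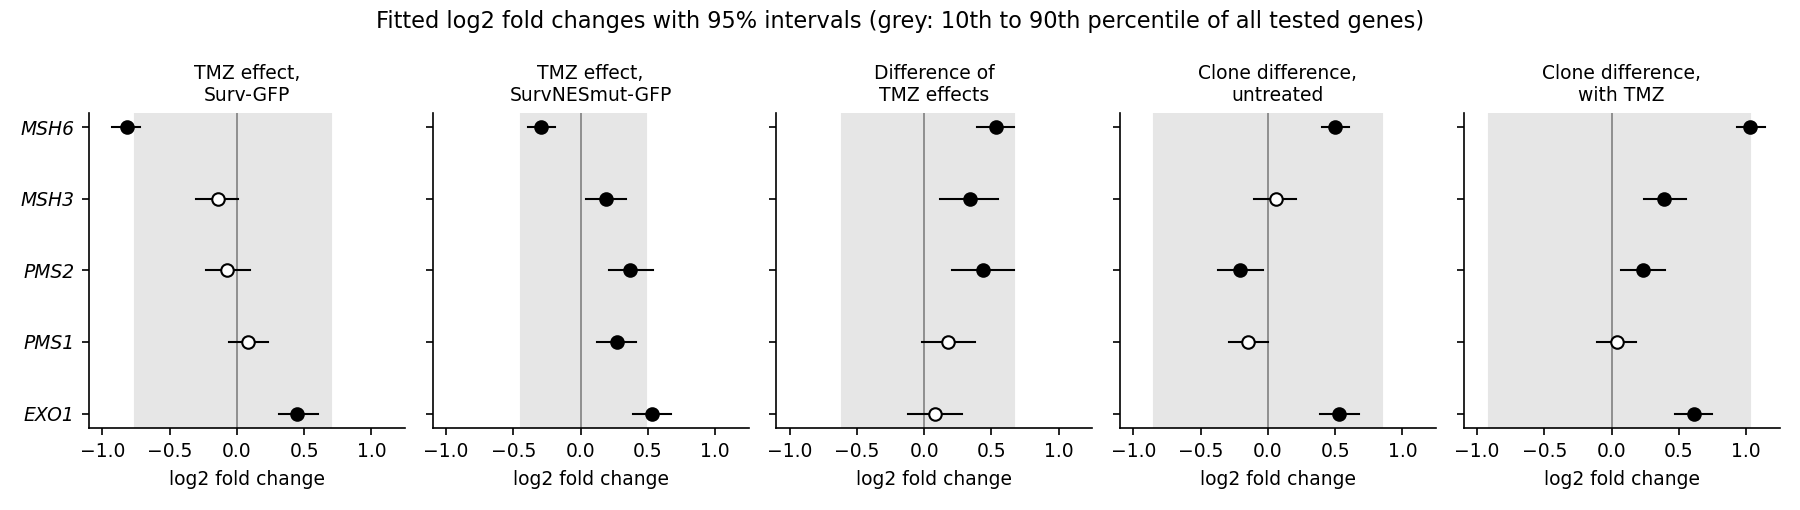
Fitted log2 fold changes (points) with 95% intervals (lines) of the 5 tested genes in the 5 comparisons, where filled points passed an adjusted p of 0.05 and grey bands hold the middle of all tested genes (10th to 90th percentile). MSH6 in Surv-GFP lies below its band at -0.82 and EXO1 in SurvNESmut-GFP just above its band at 0.53.

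EXO1 and MSH6 therefore moved apart. There were 0.326 and 0.336 EXO1 reads per MSH6 read in untreated Surv-GFP and 0.833 and 0.771 in exposed Surv-GFP. In SurvNESmut-GFP the ratio went from 0.323 and 0.352 to 0.614 and 0.581. Untreated libraries of the clones overlapped in this ratio, while all exposed libraries lay above all untreated ones, and the exposed Surv-GFP pair lay above the exposed SurvNESmut-GFP pair. The mean log2 ratio was higher by 1.28 in Surv-GFP and 0.82 in SurvNESmut-GFP, with an exact permutation p of 0.333 in each clone, the smallest possible.

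**Figure D3:**
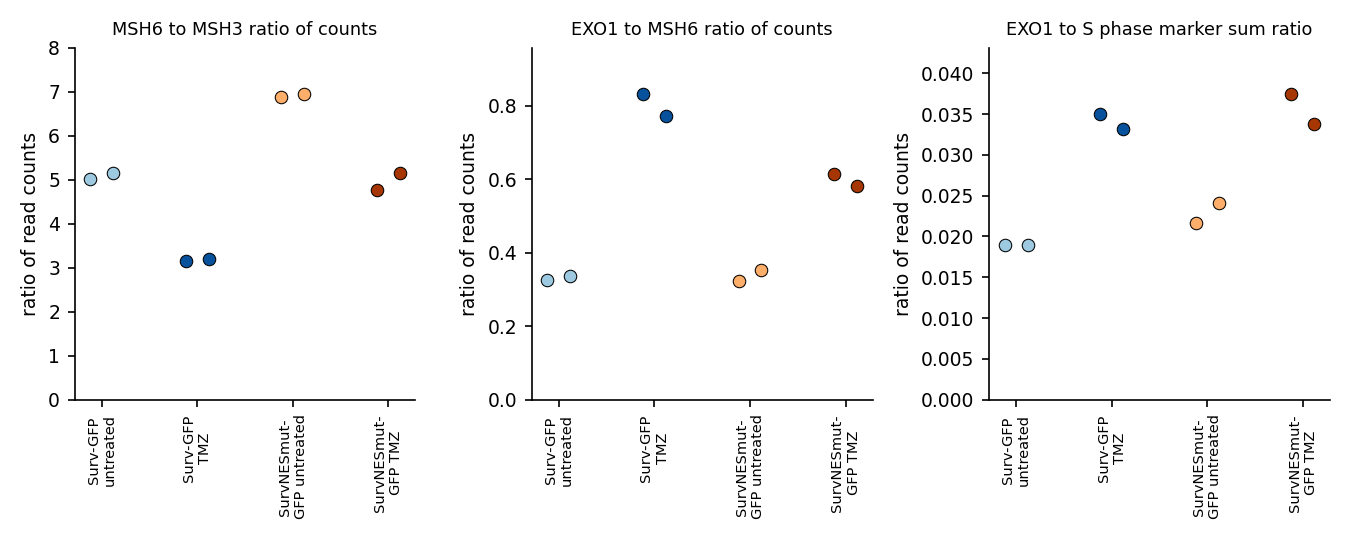
Ratios of read counts within each library (linear axes from 0) for MSH6 to MSH3, EXO1 to MSH6 and EXO1 to the sum of 15 S phase markers, with replicates a and b as points. The EXO1 to MSH6 ratio was 0.323 to 0.352 in all untreated libraries and 0.581 to 0.833 in all exposed ones.

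MGMT had 0 counts in all 8 libraries. A count of 0 allows up to 3 counts, which is 0.160 to 0.189 CPM depending on the library, so expression at or below that level cannot be seen and no difference between groups can be given. Of 8 genes for DNA methyltransferases, methyl-CpG binders and transcription factors known to act on the MGMT promoter, 3 were higher and 2 lower upon TMZ in Surv-GFP and 0 higher and 2 lower in SurvNESmut-GFP, with medians of -0.03 and 0.01. Over all genes these shares were 30.1% and 28.9% in Surv-GFP and 18.6% and 19.1% in SurvNESmut-GFP. NFKB1, a subunit of NF-κB, rose from 76.9 to 146 CPM in Surv-GFP (log2 fold change 0.92, adjusted p = 1.8e-10) and fell from 121 to 103 CPM in SurvNESmut-GFP (-0.23, adjusted p = 0.00174). DNMT1, the maintenance methyltransferase, was at 356 and 427 CPM in the untreated clones and passed no test upon TMZ, with log2 fold changes of -0.03 and 0.05. DNMT3B, a de novo methyltransferase, fell in both clones, by 0.73 (adjusted p = 6.2e-04) and 0.47 (adjusted p = 0.0101) on the log2 scale.

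Levels were compared between genes per kilobase of coding sequence (the principal GENCODE v29 transcript), an approximate scale because reads also cover untranslated parts. In untreated Surv-GFP the order was MSH6 (40 CPM per kb), EXO1 (21.3), PMS1 (11.9), MSH3 (9.4), PMS2 (9.34) and MLH3 (0.044), where MSH3 and PMS2 did not differ beyond their spread. In exposed Surv-GFP, EXO1 (29.1 ± 1.6 CPM per kb, SD, n = 2) stood above MSH6 (22.6 ± 0.027). In SurvNESmut-GFP, MSH6 led without TMZ (56.6 against 30.7 for EXO1), and with TMZ their levels were 46.2 ± 1.0 and 44.4 ± 2.7 CPM per kb, within their spread. Among 15345 coding genes with any count, MSH6 stood at percentile 72.4 in untreated and 59 in exposed Surv-GFP, and EXO1 at 58 and 64.5.

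The untreated clones already differed in MSH6 and EXO1. Of these 5, 2 were higher and 1 was lower in untreated SurvNESmut-GFP than in untreated Surv-GFP, where 64.1% of all genes passed, 34.7% higher and 29.4% lower. MSH6 was 1.42-fold higher (log2 0.50 ± 0.047 SE, adjusted p = 9.1e-08) and EXO1 1.45-fold higher (0.53 ± 0.069 SE, adjusted p = 4.0e-06). PMS2 was lower by 0.21 (adjusted p = 0.0303), a call lost without any 1 of the 4 untreated libraries (adjusted p between 0.0606 and 0.152) and with the copies added (-0.14, adjusted p = 0.056). MSH3 (0.06, adjusted p = 0.502) and PMS1 (-0.15, adjusted p = 0.0718) passed no test, although PMS1 did in 8 of 17 alternatives.

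Between the exposed clones, 4 of these 5 genes had higher levels in SurvNESmut-GFP and 0 had lower ones, where 69.2% of all genes passed, 34.5% higher and 34.7% lower. MSH6 was 2.04-fold higher (log2 1.03 ± 0.049 SE, adjusted p = 1.9e-11), EXO1 1.52-fold (0.61 ± 0.065 SE, adjusted p = 3.8e-07) and MSH3 1.31-fold (0.39 ± 0.073 SE, adjusted p = 1.4e-04). PMS2 was higher by 0.23 (adjusted p = 0.0132), which was 0.03 (adjusted p = 0.701) with its copies added. This PMS2 call was also lost without the exposed Surv-GFP replicate a (0.16, adjusted p = 0.156) and without either exposed SurvNESmut-GFP library (0.20 each). PMS1 did not pass (0.04, 95% interval -0.11 to 0.18, adjusted p = 0.656).

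Among the genes that refill the excised gap, PCNA and RPA1 were lower upon TMZ in Surv-GFP and POLD4 was higher. The list held 15 genes for the sliding clamp, its loader, RPA, DNA polymerase δ, ligase I and the chromatin protein HMGB1, which is no synthesis or ligation gene. In Surv-GFP 3 of them were higher and 8 lower upon TMZ, HMGB1 among the latter, with a median log2 fold change of -0.14, where 30.1% of all tested genes were higher and 28.9% lower. In SurvNESmut-GFP 3 were higher and 3 lower, with a median of 0.05, where 18.6% and 19.1% of all genes were. The direct test called 7 effects higher and 2 lower in that clone, against 16.6% and 20.2% of all genes. PCNA, the clamp that also tethers MutS and MutL, fell from 323 ± 8.19 to 170 ± 8.97 CPM (log2 fold change -0.92, adjusted p = 8.2e-10) and from 431 ± 21.7 to 339 ± 19.1 CPM (-0.34, adjusted p = 1.3e-04). RPA1, which coats the single strand that EXO1 exposes, fell by 0.53 in Surv-GFP (adjusted p = 1.8e-07) and was at 0.09 in SurvNESmut-GFP (adjusted p = 0.127). POLD3, a polymerase δ subunit, had log2 fold changes of -0.14 (adjusted p = 0.042) and 0.40 (adjusted p = 3.2e-05). The 3 higher genes in Surv-GFP were POLD4, RFC1 and POLD2. POLD4, another polymerase δ subunit, rose by 0.54 there (adjusted p = 6.5e-06) and was at -0.11 in SurvNESmut-GFP (adjusted p = 0.225). The POLD4 effects differed by -0.65 (adjusted p = 9.0e-05), the opposite direction to PCNA, RPA1 and POLD3.

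Among 9 accessory or related factors, 7 could be tested. Upon TMZ 1 was higher and 4 lower in Surv-GFP (median -0.17; all genes 30.1% and 28.9%) and 1 higher and 0 lower in SurvNESmut-GFP (median -0.03; all genes 18.6% and 19.1%). MCM8, the partner of the helicase MCM9, was higher in both clones, by 0.19 (adjusted p = 0.00806) and 0.24 (adjusted p = 0.00319). FAN1, a nuclease that binds MutL proteins, fell by 0.38 in Surv-GFP (adjusted p = 1.1e-04), and its effects differed by 0.44 (adjusted p = 0.00152). In the ATR pathway, which signals from the persisting gaps, 0 of 11 genes were higher and 3 lower in Surv-GFP (median -0.09), against 3 higher and 0 lower in SurvNESmut-GFP (median 0.15), and 5 effects were higher in SurvNESmut-GFP and 0 lower by the direct test. The 3 lower genes in Surv-GFP are near the share among all genes (28.9% lower), as are the 3 higher ones in SurvNESmut-GFP (18.6% higher), whereas 16.6% of all genes had a higher effect in the direct test. CLSPN, the adaptor for CHK1 activation, fell from 68.2 to 50.7 CPM in Surv-GFP (-0.43, adjusted p = 2.2e-05) and rose from 108 to 128 CPM in SurvNESmut-GFP (0.24, adjusted p = 0.00299).

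All 9 G2 and mitosis markers were lower upon TMZ in each clone (all genes 28.9% and 19.1% lower), with a median of -1.57 in Surv-GFP and one of -1.01 in SurvNESmut-GFP. The summed level of these markers was 2618 to 2854 CPM untreated and 971 to 989 CPM exposed in Surv-GFP, and 3339 to 3391 and 1709 to 1754 CPM in SurvNESmut-GFP. Exposed SurvNESmut-GFP thus lay below untreated Surv-GFP in this sum, although it lay above it in MSH6. The sum of the 15 S phase markers, in contrast, ranked the groups in the same order as MSH6. In Surv-GFP the S phase sum was 2771 to 2903 CPM untreated and 2142 to 2193 CPM exposed. In SurvNESmut-GFP it was 3399 to 3425 CPM untreated and 3130 to 3193 CPM exposed. Of 15 S phase markers, 11 were lower and 2 higher in Surv-GFP (median -0.36), where 28.9% of all genes were lower and 30.1% higher. In SurvNESmut-GFP 6 were lower and 2 higher (median -0.08), where 19.1% of all genes were lower and 18.6% higher. The replicative helicase gene MCM6 fell by 1.10 and 0.83, whereas CDC6, which loads that helicase, rose by 0.71 in Surv-GFP (adjusted p = 7.5e-08) and was at 0.15 in SurvNESmut-GFP (adjusted p = 0.0645). In bulk RNA, fewer cells in a phase and less RNA per cell cannot be told apart, and the part of the cell cycle in the MSH6 and EXO1 changes was not tested.

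Upon TMZ, EXO1 rose while the S phase sum was lower in each clone. There were 0.0190 EXO1 reads per read of the 15 S phase markers in both untreated Surv-GFP libraries, and 0.0350 and 0.0332 in the exposed ones. In SurvNESmut-GFP the values were 0.0216 and 0.0241 untreated and 0.0375 and 0.0338 exposed. The ratio was higher in all exposed libraries than in all untreated ones, and the exposed clones overlapped. On the log2 scale it was higher by 0.84 and 0.64 (exact permutation p = 0.333 each, the smallest possible).

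Of 16 genes for E2F factors and their partners, 4 were higher and 9 lower upon TMZ in Surv-GFP (median -0.23) and 2 higher and 2 lower in SurvNESmut-GFP (median -0.02). Of all tested genes, 30.1% were higher and 28.9% lower in Surv-GFP, and 18.6% higher and 19.1% lower in SurvNESmut-GFP, so the E2F list had more lower genes than the background in Surv-GFP and otherwise lay below it. E2F1, an activator, fell from 77.5 to 59.5 CPM in Surv-GFP (-0.38, adjusted p = 4.2e-05) and stood at 136 and 132 CPM in SurvNESmut-GFP (-0.04, adjusted p = 0.573). E2F7, a repressor of the family, rose from 39.1 to 106 CPM (1.44, adjusted p = 1.4e-11) and from 82.8 to 129 CPM (0.64, adjusted p = 3.8e-07), and its rise was smaller in SurvNESmut-GFP by 0.80 on the log2 scale (adjusted p = 3.3e-06). Other genes of this list fell in both clones. E2F8 had log2 fold changes of -0.42 (adjusted p = 5.3e-04) and -0.27 (adjusted p = 0.0242). RBL2 had -0.65 (adjusted p = 5.0e-08) and -0.39 (adjusted p = 5.9e-05). Of the 4 genes with an E2F-type match printed above, MSH6 was lower in both clones, EXO1 higher in both, and MSH3 and PMS2 were called, each as higher, in SurvNESmut-GFP alone. That MSH3 call was lost in 11 of 17 alternatives.

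**Figure D4:**
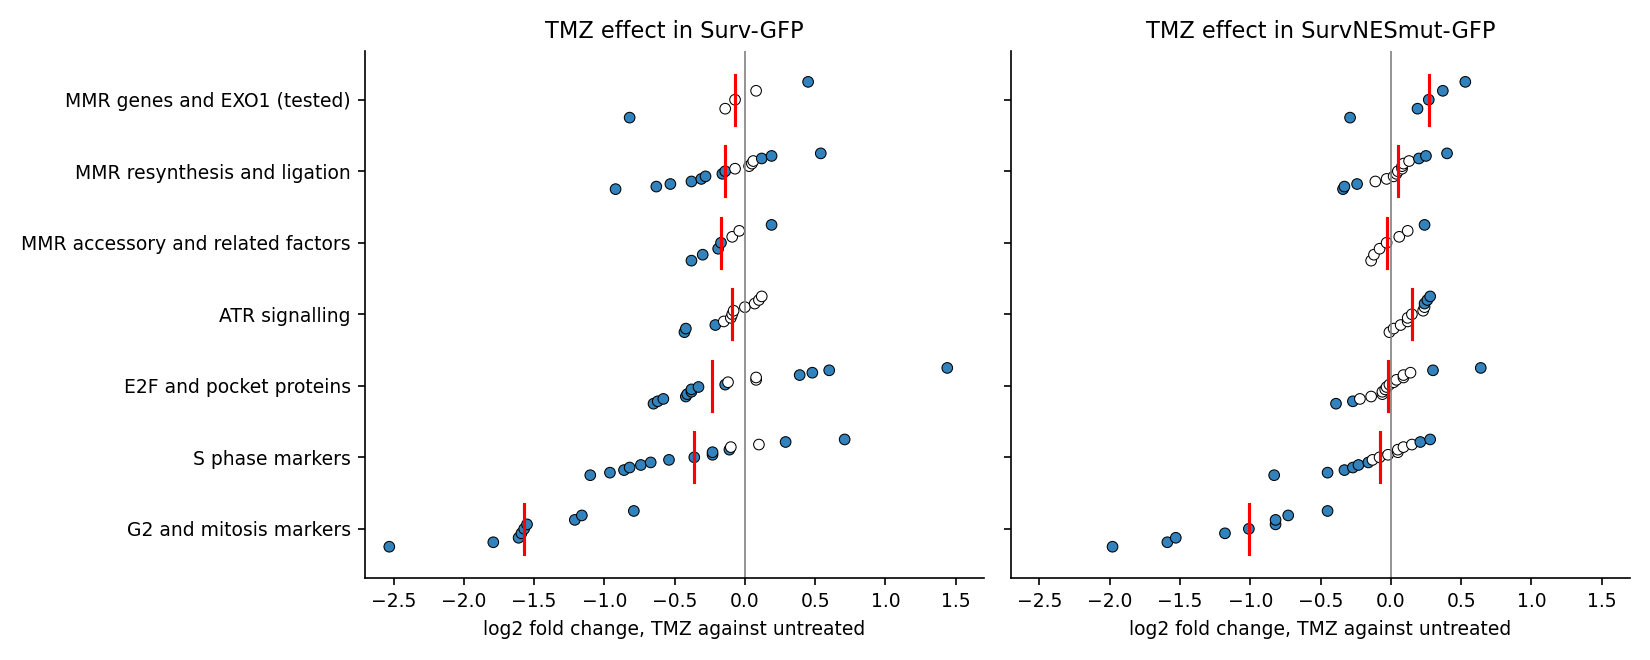
Log2 fold changes upon TMZ of the tested genes of 7 lists, 1 point per gene, with Surv-GFP on the left and SurvNESmut-GFP on the right; filled points passed an adjusted p of 0.05 and red lines are list medians. The 9 G2 and mitosis markers all lie below 0, and the 5 mismatch repair genes spread from -0.82 to 0.45 and from -0.29 to 0.53.

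Genes with the most similar pattern were ranked by the root mean square difference of centred log2 CPM over the 8 libraries, among 11011 genes with at least 100 counts on average. For MSH6 they were NLGN2, SPR and ITGA4 (0.056 to 0.064), and among the 3 for EXO1 were SCRN3 and RBBP8 (0.078 and 0.079). RBBP8 encodes CtIP, which starts the end resection that EXO1 extends. The closest to MSH3 were C9orf78, DDHD1 and LYRM7 (0.031 to 0.036), to PMS1 H2AFY, MED20 and NPRL3 (0.032 to 0.035), and to PMS2 VPS16, DNASE2 and RIN3 (0.043 to 0.047). All 8 libraries share the 2 clones and the 4 groups, so many genes share such patterns.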

How the data were processed

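The authors sequenced total RNA of LN229 clones on an Illumina machine, and the labels placed the 8 libraries in 4 groups of 2. The authors deposited whole-number read counts per gene symbol, not normalized. Tools named in the submitters' processing notes are STAR 2.5.0b, Cufflinks 2.2.1 and edgeR. No source used here names the counting program, build, annotation or strand setting, so reads where genes overlap cannot be assigned with certainty. Besides genes, 2 rows held reads of no gene (11.2% to 14.3% of a library) or of ambiguous assignment (1.19% to 1.28%) and were left out. The authors' 5 comparison tables of log2 fold changes and p-values were not used.

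The counts were fitted with edgeR 4.0.16 under R 4.3.3 (TMM scaling, filter on low counts by group, legacy quasi-likelihood F test, two-sided) in 1 model of 4 group means over all 8 libraries. P-values were Benjamini-Hochberg adjusted over all 14201 tested genes at a threshold of 0.05. CPM are counts scaled by TMM-adjusted library sizes. Standard errors and 95% intervals come from that fit, and ± SD is over 2 libraries. Ratios within a library were compared by an exact permutation test, two-sided. Promoter windows were matched by symbol for all 7 genes. Neighbours were taken from GENCODE v29 and RefSeq. DESeq2 1.42.0 and the other alternatives are given in the closing section. The scripts were tested on simulated data. Intervals and limits for low counts cover counting error only.

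The 7 genes and all lists were chosen with earlier results of these data known. All 7 were named, as were BIRC5, CDKN1A, neighbours and copies, up to 3 genes per list and direction with the smallest p among those past the threshold, and the 3 nearest patterns per gene. A list gene that the rule named in 1 comparison is given in both clones. A few genes that this rule or the pathway would include are not reported here.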

Additional observations from a re-analysis of the deposited data

Results flagged for a closer look

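In 3 of the 5 tested genes the effect of TMZ differed between the clones by a direct test of the difference (edgeR quasi-likelihood test, 36.8% of all tested genes passed). For MSH6 the log2 fold change upon TMZ was higher in SurvNESmut-GFP than in Surv-GFP by 0.53 (adjusted p = 1.5e-05), and both clones showed a decrease. The difference for MSH3 was 0.34 (adjusted p = 0.0165). It was lost without the untreated Surv-GFP replicate a (0.32, adjusted p = 0.057), the untreated SurvNESmut-GFP replicate a (0.32, adjusted p = 0.0617) or the exposed SurvNESmut-GFP replicate a (0.25, adjusted p = 0.0707). For PMS2 it was 0.44 (adjusted p = 0.00505), and 0.16 (adjusted p = 0.144) once the reads of its 7 listed copies were added.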

How the results depend on the processing

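The fits were repeated with other scaling (DESeq2's size factors, or plain library size), other filters (none, or 1 CPM in 2 libraries), DESeq2 itself, the newer quasi-likelihood method, a robust prior, a replicate block by letter, the compared groups alone, and with 1 library omitted at a time. No fold change that passed the threshold reversed its sign. The number of the 5 genes called lower upon TMZ in Surv-GFP went from 1 to 2 with the 1 CPM filter. The number called lower in the untreated clone comparison, 1 in the fit reported, was 2 with either other scaling, the 1 CPM filter or the compared groups alone, was 0 with DESeq2, and ranged from 0 to 2 with 1 library left out. All other counts of calls, over these genes and over all genes, stayed within 1.5 times. Of the alternative values for the 5 genes, 389 kept their side of the threshold, 27 lost a call and 9 gained one, in MSH3, PMS1 and PMS2. With DESeq2 the MSH3 difference between TMZ effects had an adjusted p of 0.0608. The letters did not pair the libraries (correlation of deviations between groups -0.045 to 0.075). Under the replicate block 3 rather than 4 of the genes were called higher in SurvNESmut-GFP upon TMZ, MSH3 having an adjusted p of 0.0517, and genes lower there numbered 2610 against 2719. The ratios of EXO1 to MSH6 and PMS2 to PMS1 were added after seeing the data, and the planned ratio of PMS2 to MLH3 was not run because MLH3 had 0 to 4 counts. MLH3 (0 to 4 counts) and MGMT (0 counts) had too few counts for a change to be detected.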

Other observations

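The genes beside MLH3 and MGMT, looked up after their counts were seen, did have reads. In the order of RefSeq genes, EIF2B2 next to MLH3 on one side had 996 to 1306 counts per library and ACYP1 on the other side had 100 to 146, against 0 to 4 for MLH3, whose exons overlap no other gene in GENCODE v29. MGMT, with 0 counts, lies between MKI67, the proliferation marker with 4665 to 11980 counts, and EBF3, a transcription factor with 199 to 1002 counts. ORMDL1, whose exons overlap 1.89% of the PMS1 exon bases, rose upon TMZ in Surv-GFP (log2 fold change 0.56, edgeR adjusted p = 4.9e-07), where PMS1 was at 0.08, and was at 0.16 in SurvNESmut-GFP (adjusted p = 0.0629), where PMS1 rose by 0.27.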
